A study of Mus musculus with 7 samples.

Results

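The genes described here were 38 genes for enzymes that cut the extracellular matrix and for their inhibitors: 19 ADAMTS proteases, 15 matrix metalloproteinases (MMPs) and 4 tissue inhibitors of metalloproteinases (TIMPs). They were chosen by name, out of 21755 protein-coding genes of the mouse autosomes and X chromosome, and all 38 matched 1 gene in the GENCODE vM21 annotation of GRCm38 (mm10). Around each gene, the gene body plus 50 kb on each side was searched for estrogen receptor β (ERβ) ChIP-seq signal in mouse ovary. The regions of the 38 genes covered 6.60 Mb in total.

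In ChIP-seq, cross-linked and sheared chromatin is pulled down with an antibody, here the monoclonal PPZ0506 against ERβ, and the DNA is sequenced beside sheared chromatin that was not pulled down (input). Signal tracks of 5 libraries, 3 ChIP replicates and 2 inputs, came from ovaries of C57BL/6J mice whose Esr2 gene was intact (labelled as expressing ERβ endogenously). Per the methods of the study, each ChIP replicate pooled 14 ovaries from 7 mice of 4 to 16 weeks. The 2 ChIP samples from ovaries with ERβ deleted were not analysed here, so signal was judged against input alone. Whole ovary is a mixture of granulosa, theca, stromal and other cells, and a site bound in few cells cannot be told apart from one bound weakly in many. The tracks hold no expression values, so the tissue could not be checked by marker genes.

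Normalised signal averaged 0.362 to 0.366 over the genome in the ChIP libraries and 0.367 to 0.370 in the inputs. Tag counts cannot be recovered from the averaged tracks, which give no depth, so the precision of each value was read from the spread between replicates. Input replicate 1 was stored in shorter segments (median 269 bp) than Input replicate 2 (519 bp), and at the sites described below their ratio ranged from 0.646 to 1.73. Track names also carried a shared prefix in ChIP replicates 2 and 3 and Input replicate 2 but not in ChIP replicate 1 and Input replicate 1. What the prefix stands for is not given.

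In the ovary, the matrix around and inside the follicle is cut and rebuilt as follicles grow, rupture at ovulation and turn into corpora lutea. ADAMTS enzymes are secreted and cleave proteoglycans such as versican or trim the ends of procollagens, MMPs digest collagens, gelatins and other matrix proteins, and TIMPs block the catalytic zinc site of these enzymes. ERβ, which is most abundant in granulosa cells, binds DNA as a dimer at the estrogen response element (ERE), whose arms GGTCA and TGACC face each other across a spacer of any bases.

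A site was a 200-bp window whose signal was over 4-fold that of the mean input in at least 2 ChIP libraries. Sites were thus picked for ChIP signal above these inputs. Their separation from the inputs follows in large part from that choice, and the p-values given for them below use the same libraries. The genome held 4841 such sites, and 19 of them lay in the regions of 12 of the 38 genes. The strongest were in introns 3 and 4 of Adamts2, a procollagen N-propeptidase, at 29.1 ± 2.59 and 14.2 ± 5.38-fold over input (mean ± SD, n = 3 ChIP libraries). Next came a site 9.92 kb upstream of Adamts4, an aggrecan- and versican-cleaving enzyme, at 12.7 ± 1.09-fold, and one in the region of Timp2, an inhibitor of Mmp2, at 11.1 ± 5.21-fold. Adamts12, Mmp14 and Mmp11 followed at 5.53 to 7.72-fold, and the strongest sites of Adamts9, Adamts10, Adamts5, Adamts3, Adamts20 and Adamts6 lay between 4.11 and 4.67-fold. The remaining 26 genes had no site.

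The sequences below come from GRCm38 (plus strand) and cover the closest match to the ERE consensus GGTCANNNTGACC in each of the 8 strongest sites, with 20 bases on each side. Capitals mark that match. They are shown because the number of mismatches in the 10 fixed bases of the ERE differed between sites of similar height. The last of the 9 lines is a weaker site, added after its values were seen, because it alone held an ERE without mismatch.
Adamts2 intron 3, chr11:50672916-50672968, 3 mismatches: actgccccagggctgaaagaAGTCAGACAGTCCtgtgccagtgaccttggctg
Adamts2 intron 4, chr11:50739620-50739672, 3 mismatches: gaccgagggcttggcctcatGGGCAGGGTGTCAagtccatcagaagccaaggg
Adamts4 region, chr1:171240517-171240569, 1 mismatch: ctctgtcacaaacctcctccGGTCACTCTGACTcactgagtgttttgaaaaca
Timp2 region, chr11:118295190-118295242, 1 mismatch: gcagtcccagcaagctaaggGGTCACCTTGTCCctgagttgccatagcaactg
Adamts12 intron 18, chr15:11306598-11306650, 3 mismatches: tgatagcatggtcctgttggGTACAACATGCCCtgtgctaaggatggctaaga
Mmp14 region, chr14:54479758-54479810, 1 mismatch: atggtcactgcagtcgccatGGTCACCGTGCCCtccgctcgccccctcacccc
Adamts2 intron 3, chr11:50696304-50696356, 1 mismatch: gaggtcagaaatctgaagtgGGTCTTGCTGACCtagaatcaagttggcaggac
Mmp11 region, chr10:75942848-75942900, 2 mismatches: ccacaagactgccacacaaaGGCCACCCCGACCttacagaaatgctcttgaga
Adamts2 intron 3, chr11:50708530-50708582, 0 mismatches: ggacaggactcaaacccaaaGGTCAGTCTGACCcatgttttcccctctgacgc

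The strongest of the 19 sites, in intron 3 of Adamts2, had no ERE within 2 mismatches. Its 200 bp did hold the NR5A motif CAAGGTCA on the minus strand, the element bound by the ovarian nuclear receptors Nr5a1 and Nr5a2, whose last bases are also an ERE arm. The window is printed whole for that reason, with the plus-strand letters of the NR5A match in capitals.
Adamts2 intron 3, chr11:50672831-50673030: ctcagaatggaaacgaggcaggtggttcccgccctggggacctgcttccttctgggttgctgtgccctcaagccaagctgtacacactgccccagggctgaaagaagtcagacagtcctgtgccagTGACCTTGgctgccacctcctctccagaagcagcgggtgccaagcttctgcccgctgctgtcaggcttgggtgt

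Whether the matrix protease and inhibitor genes held sites more often than other genes was read from the share of genes with a site. With 12 of 38 genes, 31.6% had a site, against 27.5% of all protein-coding genes. Long genes have larger regions and more sites, and the share of all protein-coding genes came to 31.4% once their region lengths were weighted to those of the 38 genes. The mean was 0.5 sites per member, against 0.504 per protein-coding gene at the same lengths. As a group, the 38 genes therefore stood at the background for their length. The regions held 2.88 sites per Mb, against 2.42 per Mb over all protein-coding regions, and 2.07 per Mb without Adamts2. Without ChIP replicate 2, 7 members and 11 sites were left, and without replicate 1 or 3 there were 10 and 9 members, both remaining ChIP libraries having to pass in each case.

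**Figure D1:**
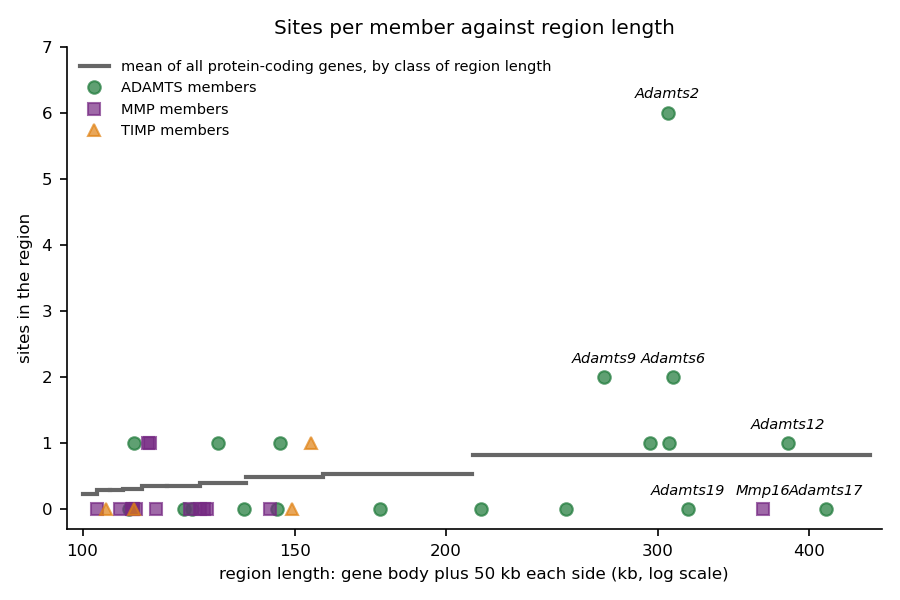
Number of sites in each of the 38 regions (points, by family) against region length in kb on a log axis. Grey lines give the mean number of sites over all protein-coding genes in each of 10 classes of region length (the longest class is cut at the right edge). Adamts2, with 6 sites, stands above the line of its length class, and most MMP members lie at 0.

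Sites were also tied to genes by other rules. Inside the gene body, 6 members (15.8%) had a site, against 8.83% of protein-coding genes and 14.2% at equal body length. With no limit on distance, a member held the nearest protein-coding start for at least 1 site in 8 cases (21.1%), against 15.1% of protein-coding genes, a share not weighted by length. In 6 of these the site lay in the member's own region. Of the 19 sites, 12 lay inside a member's body and 10 had a member as the gene with the nearest protein-coding start. For the other 9, including those in the Adamts4, Timp2, Mmp14 and Mmp11 regions, the nearest start was that of another gene.

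The families differed in how many members had a site, although none of these shares was tested. Among ADAMTS genes, 9 of 19 (47.4%) had one, and protein-coding genes of the same region lengths had one in 36.2% of cases. Among MMP genes it was 2 of 15 (13.3%), with 26.3% at the same lengths, and among TIMP genes 1 of 4 (25%), with 27.6%. ADAMTS regions held 16 of the 19 sites (3.87 per Mb) and MMP regions 2 (1.03 per Mb), against 2.42 per Mb over all protein-coding regions. Adamts2 alone held 6 of the 16, so the ADAMTS density rests in large part on 1 gene.

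**Figure D2:**
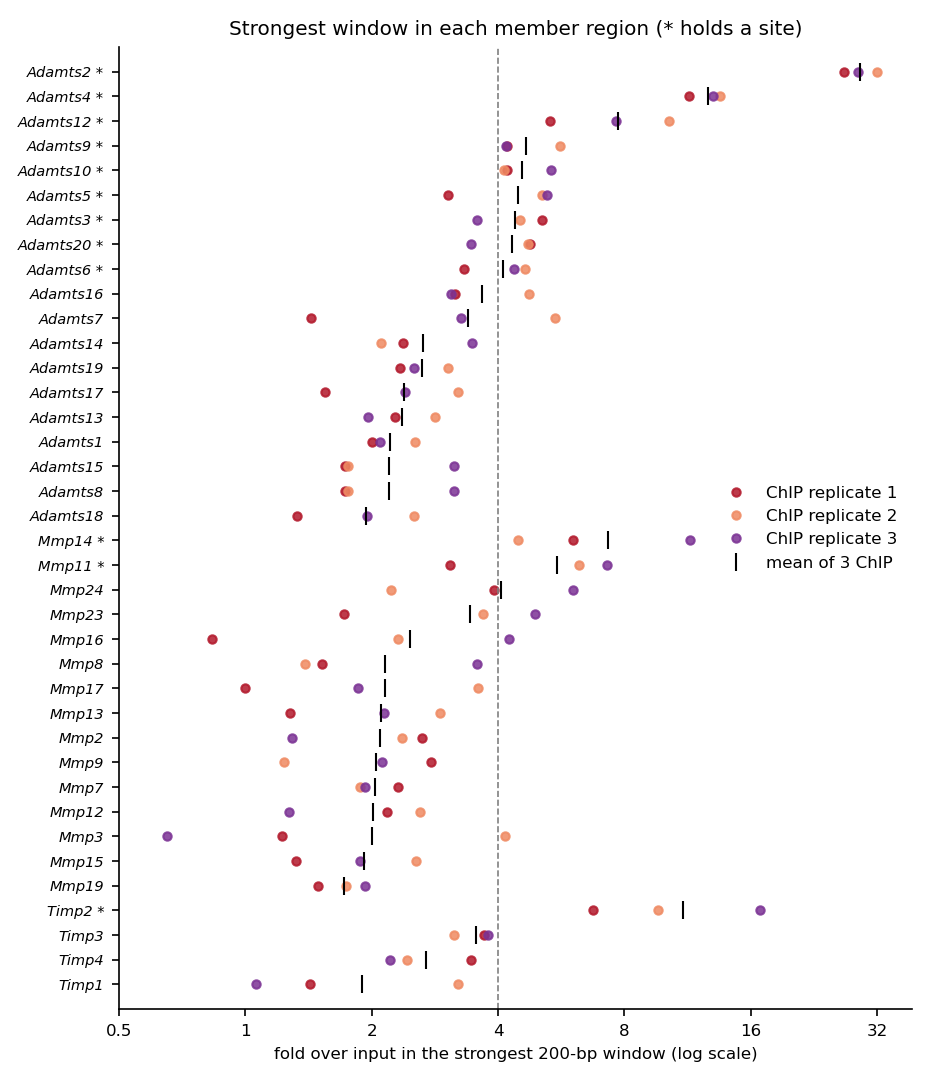
Fold over input in the strongest 200-bp window of each of the 38 regions, on a log axis, for the 3 ChIP libraries (coloured points) and their mean (black tick). Genes are ordered within ADAMTS, MMP and TIMP by that mean, asterisks mark the 12 genes with a site, and the dashed line is at 4-fold. Adamts2, Adamts4 and Timp2 lie far to the right of the line in all 3 libraries, whereas Adamts7, Mmp24 and Mmp23 straddle it.

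The procollagen N-propeptidases, which remove the amino-terminal propeptide of fibrillar procollagens, held 7 sites in 3 genes. Adamts2 alone held 6, all of them in introns 2, 3 and 4 and spread over 99.9 kb. Of all 21755 protein-coding genes, 30 (0.138%) had 6 or more sites in their region, and 14 (0.0644%) had as many in the gene body. These shares were not weighted by length. The Adamts2 region, at 305 kb, was in the longest class, whose genes averaged 0.822 sites, against 0.409 over all protein-coding genes. Adamts3 had 1 site and Adamts14 none.

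At the strongest Adamts2 site, chr11:50672831-50673030, 70.8 kb into the gene, signal was 25.7, 30.6 and 27.7 in ChIP replicates 1, 2 and 3, and 0.754 and 1.17 in Input replicates 1 and 2. The 3 ChIP libraries were close together, at 26.7, 31.9 and 28.8-fold. It ranked 63 of the 4841 sites of the genome by mean fold. Over the 1-kb window that contains its centre, ChIP exceeded input by 2.44 ± 0.25 (SE) on the log2(signal + 0.5) scale, with an adjusted p of 9.86e-08 (limma, over all 1-kb windows). The next 1-kb window, which takes in the last 30 bp of the site, was also higher, by 1.15 ± 0.19 on that scale (adjusted p = 0.0011, limma).

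The other Adamts2 sites were lower. In intron 4, 138 kb into the gene (chr11:50739531-50739730), signal reached 9.08, 13.01 and 19.5 in ChIP replicates 1 to 3, against 0.958 and 0.991 in the inputs. ChIP replicate 3 was higher than replicate 1 there by more than the whole range seen at the intron 3 site. The 1-kb window was 1.98 ± 0.24 higher on the log2 scale (adjusted p = 2.98e-06, limma). The remaining 4 sites were at 6.996 ± 0.91, 5.30 ± 2.02, 5.11 ± 0.62 and 5.05 ± 0.55-fold. One of these, 106 kb into the gene, held the full ERE printed above, and its fold was 2.98 in ChIP replicate 1 but 6.66 and 6.25 in replicates 2 and 3. Windows around the sites 94.3 and 52.1 kb into the gene passed the limma test (log2 differences of 0.98 ± 0.19 and 0.87 ± 0.19, adjusted p = 0.00907 and 0.042). Those around the full ERE (0.71 ± 0.20, adjusted p = 0.382, limma) and the site 152 kb into the gene (0.32 ± 0.17, adjusted p = 0.957, limma) did not.

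**Figure D3:**
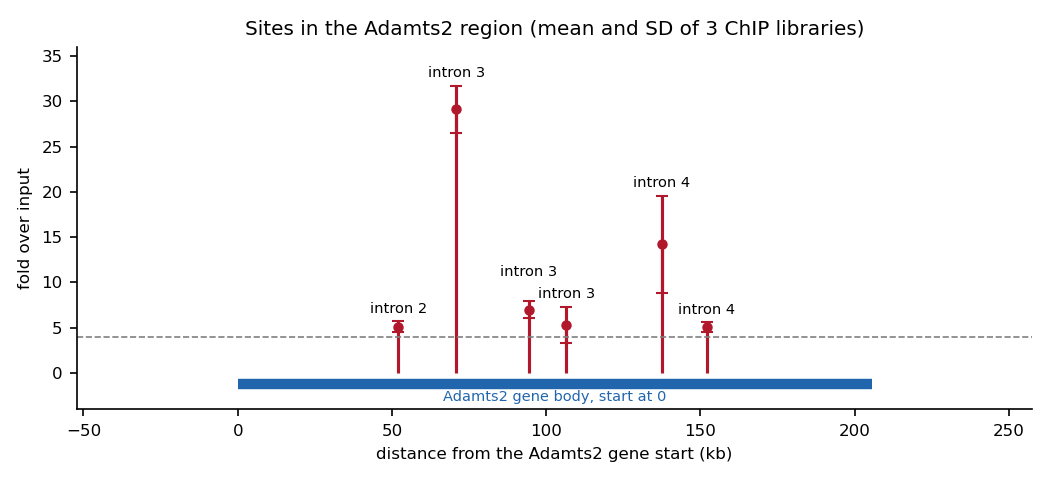
Position of the 6 sites in Adamts2, in kb from the gene start, with the height of each line giving the mean fold over input and the bar its SD over 3 ChIP libraries. The blue bar is the gene body and the dashed line 4-fold. The sites lie in introns 2, 3 and 4, between 52.1 and 152 kb from the start, and the one at 70.8 kb is the highest.

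The single Adamts3 site, in intron 5 (chr5:89715821-89716020), was at 5.09, 4.51 and 3.56-fold, and its ERE had 1 mismatch. Input signal there averaged less than the genome mean of 0.368, so the fold was taken over that floor. With the floor at 2 times the genome mean, the mean fold at this site dropped from 4.39 to 2.19, and with the same floor those of Adamts5, Adamts10 and Mmp11 were 3.48, 3.69 and 3.82.

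Proteoglycanase genes, whose products cleave aggrecan, versican and related proteoglycans, held 5 sites in 4 of 7 genes. The Adamts4 region held the strongest of them, at chr1:171240401-171240600. Signal reached 7.70, 9.11 and 8.75 in ChIP replicates 1 to 3, against 0.729 and 0.618 in the inputs. The ChIP values were close together, and the 1-kb window was higher by 1.52 ± 0.21 on the log2 scale (adjusted p = 3.77e-05, limma). The gene with the nearest protein-coding start was Fcer1g, which encodes the common γ chain of Fc receptors, at 6.13 kb. It also held an AP-1 motif (TGAGTCA, on the minus strand), which shares bases with the right arm of the ERE printed above.

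Adamts9, Adamts5 and Adamts20 had weaker sites. In intron 27 of Adamts9 (chr6:92850381-92850580) the folds were 4.19, 5.62 and 4.19, and its other site, in an exon of the non-coding gene A730049H05Rik, was at 3.79 ± 0.73-fold, with replicate 3 at 2.95. An intergenic site beyond the end of Adamts5, 47.5 kb from its start (chr16:85854211-85854410), was at 3.03, 5.10 and 5.22-fold. The Adamts20 site (chr15:94326041-94326240) was the only one of the 19 in a coding exon, at 4.76, 4.73 and 3.46-fold, or 2.77 on average with the floor at 2 times the genome mean. None of the 1-kb windows around these sites passed the limma test, the lowest adjusted p being 0.353 at Adamts5.

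Adamts1, which cleaves versican in the matrix of the ovulating cumulus and is required for normal fertility in female mice, had no site in its region. The Adamts5 site (chr16:85854211-85854410) lay just past the upstream edge of that region, which is drawn 50 kb from the Adamts1 start (chr16:85803113). Within the Adamts1 region the highest window averaged 2.21 ± 0.28-fold. Signal at the Adamts1 promoter was 0.385, 0.764 and 0.883 with the antibody, below the inputs at 1.00 and 0.974. Adamts8 and Adamts15, whose regions overlap, shared a highest window at 2.20 ± 0.81-fold.

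Among the other ADAMTS genes, Adamts12 had the strongest site. Adamts12 and its relative Adamts7 cleave cartilage oligomeric matrix protein. The site in intron 18 of 23 of Adamts12 (chr15:11306531-11306730) had signal of 2.45, 4.71 and 3.52 in ChIP replicates 1 to 3 against 0.574 and 0.35 in Input replicates 1 and 2. The 1-kb window around this site was higher by 0.96 ± 0.18 on the log2 scale (adjusted p = 0.00763, limma). Divided by the input whose track name matched, the folds of the site were 4.27, 12.8 and 9.61, and with the input floor at 2 times the genome mean its mean fold dropped from 7.72 to 4.84. Adamts6 and Adamts10, which act on fibrillin microfibrils and cell junctions, both had sites. The stronger site of Adamts6 lay in intron 1, 0.895 kb from the gene start (chr13:104288631-104288830) at 3.33, 4.63 and 4.36-fold, and a second lay beyond the gene at 4.04 ± 1.47-fold. The Adamts10 site, 20.4 kb upstream of the gene (chr17:33503751-33503950), was at 4.20, 4.14 and 5.35-fold. Adamts13, the von Willebrand factor protease, and Adamts16, Adamts17, Adamts18 and Adamts19 had none, although Adamts17 had the longest region of all 38 genes (413 kb).

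**Figure D4:**
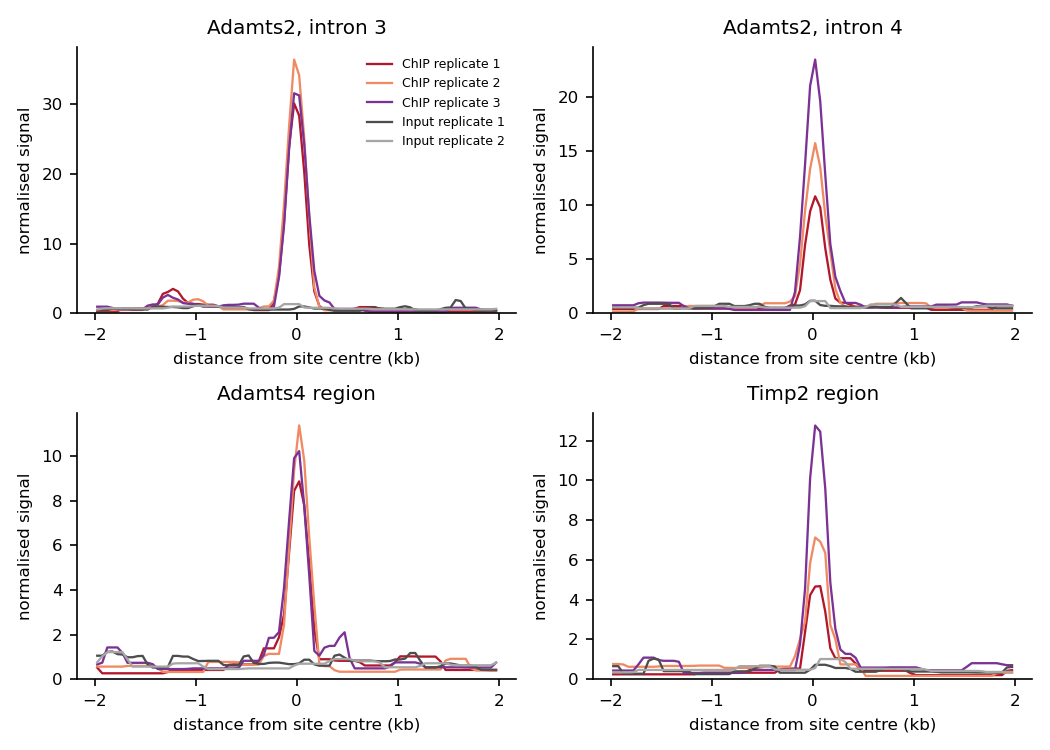
Normalised signal within 2 kb of the centres of the 4 strongest sites, averaged in steps of 50 bp, in the 3 ChIP libraries (colours) and the 2 inputs (greys). In each panel the highest ChIP signal is a narrow peak at the centre, over inputs that stay low, and the order of the replicates differs between panels. A smaller rise to 3.48, 1.78 and 2.61 in ChIP replicates 1 to 3 stands left of the peak in the Adamts2 intron 3 panel.

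Of the 15 MMP genes, Mmp14 and Mmp11 had 1 site each. Mmp14 is a membrane-bound MMP that digests collagen and activates pro-Mmp2. The site in its region (chr14:54479671-54479870) lay 48.2 kb downstream of its start and at the transcript end of Rem2, 3.67 kb from the Rem2 start. Signal reached 4.79, 3.55 and 9.13 in ChIP replicates 1 to 3, against 0.853 and 0.738 in the inputs. ChIP replicate 3 was more than double replicate 2, and the 1-kb window missed the threshold (0.84 ± 0.22 on the log2 scale, adjusted p = 0.307, limma). The site in the region of Mmp11 (stromelysin-3) was 6.38 kb upstream of its start but 0.177 kb upstream of that of Vpreb3 (chr10:75942781-75942980), at 3.08, 6.24 and 7.26-fold. The gelatinases Mmp2 and Mmp9, the collagenases Mmp8 and Mmp13, Mmp3, Mmp7, the metalloelastase Mmp12, Mmp15, Mmp16, Mmp17, Mmp19, Mmp23 and Mmp24 had no site.

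Timp2 was the only TIMP with a site. Timp2 inhibits MMPs and, bound to Mmp14, takes part in activating pro-Mmp2. The site (chr11:118295091-118295290) lay beyond the 3' end of the gene, 60.6 kb from its start and 4.95 kb upstream of the start of Usp36, a deubiquitinase gene. Signal reached 3.98, 5.70 and 9.97 in ChIP replicates 1 to 3, against 0.558 and 0.627 in the inputs. Replicate 3 was the highest, and the 1-kb window was higher by 1.35 ± 0.22 on the log2 scale (adjusted p = 0.000614, limma). Timp1, Timp3 and Timp4 had no site.

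Members without a site had their strongest windows between 1.72 and 4.06-fold, with a median of 2.20. The 5 highest were those of Mmp24 (4.06 ± 1.91), Adamts16 (3.67 ± 0.93), Timp3 (3.54 ± 0.34), Mmp23 (3.43 ± 1.61) and Adamts7 (3.39 ± 2.03). The Mmp24 window, just inside the gene, was at 3.92, 2.22 and 6.03-fold and so passed in replicate 3 alone. That of Timp3, at 3.70, 3.15 and 3.78-fold, passed in no library yet varied least of these 5, and it held an ERE without mismatch.

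At the 4-fold minimum, folds measured in a ChIP library not used to find the sites were lower at these sites than over all sites. Sites over 4-fold in both other libraries had a median of 4.54-fold in ChIP replicate 1 (16 member sites), 6.72 in replicate 2 (11 sites) and 6.49 in replicate 3 (14 sites). The mean of the 3 medians was 5.92 ± 1.20 (SD, n = 3), against 7.05 ± 1.19 over all sites. Both inputs were shared between calling and reading, and the difference was not tested. By mean fold, 4 of the 19 sites (21.1%) were over 8-fold, against 32.5% of all sites. In all 3 libraries 11 of 19 (57.9%) were over 4-fold, against 66.0%. ChIP replicate 1 was the library that most often missed, with 5 sites at or under 4-fold, while replicate 2 missed none and replicate 3 missed 3. When each ChIP library was divided by the input whose track name matched, all 19 sites were still over 4-fold in at least 2 libraries. As a control, each input called over the other gave 64 and 192 windows in the genome and 0 in the regions of the 38 genes. These regions held 0.392% of all sites, so a count of 0 from so few windows says little about them. A single library had to pass in this control, unlike in the site rule.

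An ERE with at most 2 mismatches was present in 8 of the 19 sites (42.1%, 95% Wilson interval 23.1 to 63.7%, counting error only). That interval takes the sites as independent, although 6 of the 19 lie in Adamts2. The share with such an ERE was 68.1% of all sites and 6.69% of 200-bp windows taken every 10 kb along the genome. With at most 1 mismatch, the share was 31.6% of the 19 sites and 33.1% of all sites. The arm GGTCA on either strand was found in 17 of the 19 sites (89.5%), in 84.8% of all sites and in 26.4% of genome windows. Of the other motifs searched without mismatch on both strands, that of GATA factors (searched as TGATAA with T or A as the first letter) was found in 5 sites (26.3%, against 29.7% of all sites and 24.0% of genome windows) and NR5A in 2 (10.5%, against 11.6% and 1.08%). AP-1 was found in 1 site (5.26%, against 6.65% and 3.14%) and the FOXO motif TGTTTAC in none, against 4.73% and 2.98%. The NR5A matches were in the strongest Adamts2 site and in the A730049H05Rik exon within Adamts9. The median fold of the 5 sites with 1 mismatch was 7.33 and that of the 9 sites with 3 mismatches 5.05, against 6.81 and 5.67 over all sites with as many, but the 2 strongest sites had 3 mismatches and the full ERE of Adamts2 was at 5.30-fold.

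The reverse search, for every ERE without mismatch in the 38 regions, found 9 in the regions of 9 genes, and 1 of them (11.1%) was in a site. Over the genome 13.1% of such EREs were in a site. Mean folds in the 200 bp around the 9 were 5.23 in Adamts2, 3.36 in the Timp3 region, 2.71 in the Mmp14 region and 2.65 in the Adamts14 region, and from 0.308 to 0.859 in the regions of Mmp7, Adamts19, Adamts18, Timp2 and Adamts17. The Mmp14 ERE was at 2.26, 2.59 and 3.28-fold in the ChIP replicates, and the one near Adamts17 at 0.272, 0.353 and 0.299.

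Fitted over all 2430674 windows of 1 kb, the limma test called 8 of 6449 windows in the 38 regions (0.124%) higher in ChIP, against 0.0957% of all windows, and 0 lower, against 0.00267%. At an unadjusted p under 0.05, 80 of the 6449 were higher (1.24%, against 1.9% of all windows) and 328 lower (5.09%, against 3.33%). The 8 windows were in Adamts2 (5), the Adamts4 region, the Timp2 region and Adamts12, and 7 of them held a called site. These calls rest on the same libraries as the sites and are not independent of them. The count was 5 without ChIP replicate 2, without Input replicate 1 or without Input replicate 2.

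At promoters, taken as 500 bp on each side of the gene start, the limma test called none of the 38 members higher, against 0.0095% of protein-coding promoters, and none lower. At an unadjusted p under 0.05, 1 was higher (Mmp24) and 1 lower (Timp1), each 2.63% of the members, against 1.23% and 7.45% of all promoters. ChIP signal at promoters was in general slightly below input, with a median log2 difference of -0.14 over all promoters and -0.11 over the members. Centring each library at its median moved these to 0.05 and 0.08, so the sign of small differences depends on the scaling. All 3 ChIP libraries exceeded both inputs at 5 of 38 member promoters, against 1076 of 21060 promoters in all (5.11%). They lay below both inputs at 7 of 38, against 4749 of 21060 (22.5%).

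The largest promoter difference was at Mmp24, a membrane-type MMP known mainly from the nervous system. Signal there was 0.585, 0.438 and 0.862 with the antibody and 0.323 and 0.341 without it, so that the groups did not overlap, but the difference of 0.42 ± 0.18 on the log2 scale had an adjusted p of 0.549 (limma). The Adamts2 promoter had signal of 1.14, 1.11 and 1.78 against 0.973 and 0.867, again without overlap (0.36 ± 0.35, adjusted p = 0.721, limma). At the other end, Timp1 had 0.249, 0.306 and 0.354 against 0.446 and 0.647 (-0.38 ± 0.16, adjusted p = 0.549, limma).

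**Figure D5:**
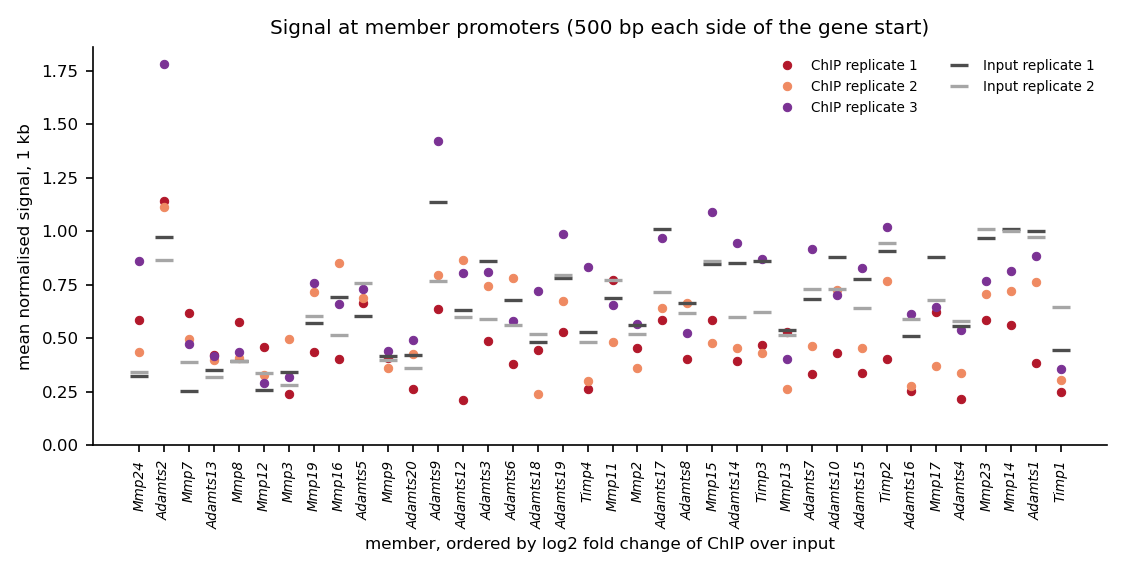
Mean normalised signal in the 1 kb around the start of each of the 38 genes, in the 3 ChIP libraries (points) and 2 inputs (dashes), ordered by the log2 difference between ChIP and input. ChIP points lie above both dashes at 5 genes, among them Mmp24 and Adamts2, and below both at 7, among them Adamts1 and Timp1.

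Of 31 other genes of matrix proteolysis, 30 matched a protein-coding gene and 9 of these (30%) had a site, against the 27.5% of all protein-coding genes. The strongest was in the region of Bmp1, the procollagen C-proteinase that removes the opposite propeptide from that cut by Adamts2, at 19.2, 27.7 and 27.4-fold, although it lay in an intron of Phyhip. Plau, the urokinase plasminogen activator, had one at 24.99, 19.6 and 17.4-fold, 34.8 kb from its start and with Plau as the nearest protein-coding start. Bcan, which encodes the proteoglycan brevican, followed at 12.6 ± 4.01-fold, with Hapln2 as the nearest protein-coding start. The ADAMTS-like genes Papln (8.93 ± 1.56, in an intron of Numb) and Adamtsl5 (8.21 ± 2.63, at a promoter of Pcsk4) came next, and then Serpine2, an inhibitor of plasminogen activators, at 5.45 ± 1.45-fold in its own intron 1, 0.74 kb from its start.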

How the data were processed

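The authors aligned single-end reads with STAR to mm10 and made the tracks with HOMER, per the labels and methods (versions are not given in the sources used here). The deposited files hold signal (coverage normalised by the authors to a common total and averaged over segments) of 3 ERβ ChIP and 2 input libraries, not pooled. Groups came from the sample titles. The tracks hold no tag counts and give no depth, so the edgeR comparison of the study was not run. Signal was put into 10-bp bins, and 200-bp windows were divided by the mean input, or by its genome mean (0.368) where that was higher. Passing windows within 200 bp were merged, and the window of highest mean fold is the site. Limma 3.58.1 in R 4.3.3 (lmFit, eBayes with trend, two-sided, Benjamini-Hochberg over all windows or promoters) was run on log2(signal + 0.5) where mean signal was at least 0.1. That scale understates changes of low signal. Both steps were tested on simulated data. Changes planted for limma were larger than those at the windows called here, so they do not show how often smaller changes are found. Python 3.11.15 was used for the rest. The members and gene lists were chosen with earlier results of these data known. Shares over all protein-coding genes, weighted by 10 classes of region length, served as background. Named genes were all members with a site, the 5 highest without one and the 6 highest related genes. The search for full EREs and arms was added after seeing the data. P-values and SEs from limma rest on the spread between these libraries, drawn by eBayes toward a trend over all windows or promoters. They do not measure the spread at a single window or promoter alone.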

Additional observations from a re-analysis of the deposited data

How the results depend on the processing

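Of the values tried under other settings, most stayed within 1.5 times the reported count or 1 SD of the reported fold. A fold minimum of 8 left 4 members with 5 sites and raised the mean held-out median to 14.2-fold. Requiring all 3 ChIP libraries left 7 members and 11 sites, and counting gene bodies alone left 6 and 12. With the input floor at 2 times its genome mean, the held-out median was 8.55-fold. Leaving out each library in turn gave 7 to 15 members, 11 to 24 sites, a held-out median of 4.73 to 6.10-fold, an ERE share of 36.4 to 42.9%, 5 to 9 windows and 0 promoters higher. Held-out folds with 1 ChIP library left out used 1 library to call and 1 to read, and none could be had with all 3 ChIP libraries required, since no library is then left to read. The cause of these shifts was not tested beyond what each setting removes. With the input of the same track-name group, an alternative added after seeing the data, there were 15 members and 23 sites, and 7 windows were higher with the track-name group as a term. The replicate block on the number shared by ChIP and input titles gave 9 windows and 0 promoters higher. It called 14 windows and 2 promoters of the members lower, where the fit without the block called 0, and leaving out ChIP replicate 3, without a block, gave 3 and 6. Over all promoters the shares lower were 11.1% and 23.1%, against 5.26% and 15.8% of the members, and over all windows 0.132% and 0.0281%, against 0.217% and 0.0465%. Deviations of same-numbered libraries correlated at 0.0362 and -0.0111 across windows, which gave no sign of pairing by number. They cannot exclude it, since deviations of 2 inputs from their own mean mirror each other. ChIP replicate 3 has no partner. Over all promoters, centring at the median called 214 higher, against 2. Of 84 refits of the strongest sites, made on the libraries that chose them, 76 moved by less than 1 SD. They ranged from 2.19-fold at Adamts3 to 37.1-fold at Adamts2. Some mean folds fell under 4, at the lowest to 2.77 for Adamts20, 3.48 for Adamts5 and 3.69 for Adamts10. The lowest were 3.82 for Mmp11 and 3.85 for Adamts6, so whether the mean folds of these 6 weaker sites exceeded 4 depended on the setting. The site rule sets its 4-fold minimum for single libraries, so a mean under 4 does not by itself undo a site.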
